A study of Mus musculus with 12 samples.

Results

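The genes described here are 10 ligands and receptors of the platelet-derived growth factor (PDGF) and fibroblast growth factor (FGF) families: the ligands Pdgfa, Pdgfb, Pdgfc, Pdgfd, Fgf2 and Fgf7 and the receptors Pdgfra, Pdgfrb, Fgfr1 and Fgfr2. They were taken by gene name, 1 row each, from a table of raw RNA-seq read counts with 54447 features. The cells were NIH3T3, an established line of mouse embryonic fibroblasts, stably infected with a lentivirus in which doxycycline (dox) switches on a Tet promoter. The virus carried either N-VEGF, the amino-terminal part of a long VEGF-A isoform, or NLS-N-VEGF, the same protein behind a nuclear localization sequence. Each of the 2 infected, puromycin-selected populations was grown with dox for 16 h or without dox, which gave 4 groups (NLS-N-VEGF no dox, NLS-N-VEGF dox, N-VEGF no dox and N-VEGF dox) of 3 libraries each. All 4 groups carried the virus and no cells without the construct were in the design, so an effect of dox itself and of the induced protein cannot be told apart. The label of each library ends in 1 of 2 date-like suffixes, here suffix a and suffix b. The letters give no order in time, and for the suffix fell and rose mean lower and higher in suffix b. Libraries 1 and 2 of every group ended in suffix a and a further library 2 in suffix b, 8 and 4 libraries in all, and what the suffix stands for is not given in the labels.

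PDGF ligands are secreted dimers that bind receptor tyrosine kinases on mesenchymal cells. PDGF receptor alpha, the product of Pdgfra, binds PDGF-A, PDGF-B and PDGF-C chains, whereas PDGF receptor beta, the product of Pdgfrb, binds mainly PDGF-B and PDGF-D. FGF ligands bind their receptors together with heparan sulfate. Fgf2 encodes a broadly acting mitogen of fibroblasts, Fgf7 encodes keratinocyte growth factor, a fibroblast product that acts on an epithelial splice form of the Fgfr2 protein, and Fgfr1 is the main FGF receptor gene of fibroblasts. PDGF is a major growth factor of serum for cultured fibroblasts, and expression of Pdgfra is widely used as a mark of fibroblast lineages.

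Each library held between 13549331 and 18982127 counted reads. The suffix set apart far more genes than any treatment did. Of 13608 genes with enough reads to test, 6207 (45.6%) differed between the suffixes at an adjusted p under 0.05 (edgeR quasi-likelihood test with the group in the model, Benjamini-Hochberg adjustment), with 22.2% of the genes higher and 23.5% lower in suffix b. This test took the 12 libraries as independent. Deviations of libraries of the same number and suffix correlated across groups, although the suffix difference itself enters these correlations. The 4 libraries of suffix b shared 1 label and the 8 of suffix a shared 2. If libraries of the same label are not independent, the p-values for the suffix may be too small. The 12 fibroblast markers summed to 11210 to 14010 CPM (read counts scaled to the size of the library) in the 8 libraries of suffix a and to 11680 to 13290 CPM in the 4 of suffix b. Vim, Col1a2 and Fn1 carried most of this sum, whereas Fap had 0 to 4 reads per library and Lum 0 to 26. The summed endothelial, epithelial, immune and adipocyte markers were each at or below 14.94 CPM in every library. Krt19, Cd3e, Tyrobp and Cebpa were at 0 counts in all 12. Others of these lists had reads in every library: Csf1r 65 to 175, Cd68 39 to 91, Lpl 106 to 237 and Cdh5 30 to 55. The summed mural and smooth muscle markers were higher, at 232.7 to 315.3 CPM in suffix a and 373.6 to 556.3 CPM in suffix b. The row that counts reads of the inserted construct held 5 to 12 reads in the 6 libraries without dox and 35 to 268 reads in the 6 libraries with dox. That row alone does not separate the 2 constructs. With dox in suffix a it was at 2.57 and 2.58 CPM in NLS-N-VEGF and at 7.56 and 8.08 CPM in N-VEGF cells. With dox in suffix b it was at 10.2 CPM in NLS-N-VEGF and at 17.9 CPM in N-VEGF cells.

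Levels of different genes were compared as RPKM, which divides CPM by the kilobases of exon of the gene. CPM was used for a single gene across libraries. The exon length was merged over all annotated transcripts and is the same in every library, so order and ratios between genes rest on it. Of the 10 genes, 8 had enough reads to test. Fgf7 and Pdgfra stood at the top, with means over all 12 libraries of 34.3 and 28.3 RPKM. Fgf7 was the higher of that pair in 7 of 12 libraries, and their ranges overlapped. Pdgfc followed at 18.2 RPKM, above Fgfr1 (14.8 RPKM) in 12 of 12 libraries. This order rests on exon lengths of 5089 bases for Pdgfc and 9875 for Fgfr1. In mean CPM Fgfr1 was the higher, at 145.9 against 92.83. Fgfr1 and Pdgfrb (14.7 RPKM) exchanged places from library to library, with Fgfr1 higher in 7 of 12. Pdgfa was at 9.83 RPKM, above Fgf2 (7.41 RPKM) in every library although the ranges of these genes touched, and Fgfr2 was lowest of the genes tested at 2.28 RPKM. The fibroblasts thus carried transcripts of both PDGF receptors, of the A and C chains, of Fgf2 and Fgf7 and of Fgfr1 and Fgfr2.

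**Figure D1:**
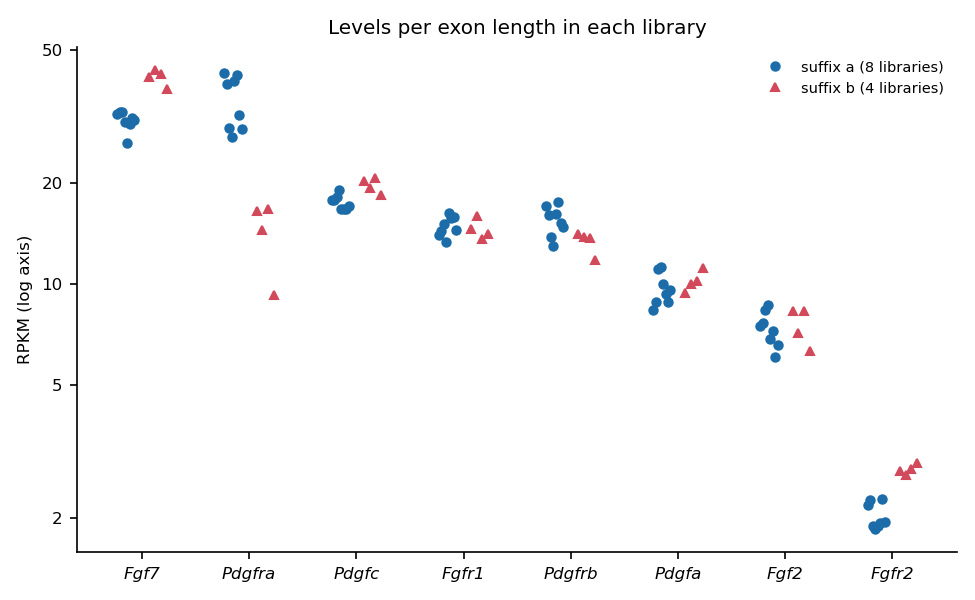
RPKM on a log axis of the 8 genes with enough reads, ordered by their mean. Each circle is 1 of 8 libraries with suffix a and each triangle 1 of 4 with suffix b. Pdgfra is at 27.5 to 42.7 RPKM in suffix a and at 9.27 to 16.8 RPKM in suffix b, while Fgf7 and Fgfr2 are higher in all triangles.

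The genes for the PDGF-B and PDGF-D chains, which serve PDGF receptor beta, were at or near 0. Pdgfb had 1 read in 1 of 12 libraries (NLS-N-VEGF dox, suffix b). Pdgfd had 0 reads in all 12 libraries. A count of 0 allows a level of up to 3 reads, which is 0.158 to 0.221 CPM depending on the depth of the library, and this limit covers counting error only. Pdgfra, by contrast, had 1387 to 7436 reads per library and the least abundant tested gene, Fgfr2, had 259 to 495, for which counting error alone is 6.21% and less of the value.

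Pdgfra, the PDGF receptor alpha gene (ENSMUSG00000029231), was the member that separated the libraries most. Without dox it was at 427.6, 397.1 and 165.3 CPM in NLS-N-VEGF cells, in the order library 1 and library 2 of suffix a and library 2 of suffix b. With dox the same population had 291.7, 275.7 and 144.7 CPM. The uninduced N-VEGF cells were at 405.2, 422.6 and 168.2 CPM, and after dox these cells were at 319.5, 291.2 and 92.88 CPM. In each of the 4 groups the library of suffix b was far below the other 2, so the groups overlapped one another while the suffix sets did not (275.7 to 427.6 against 92.88 to 168.2 CPM). The log2 difference, suffix b minus suffix a, was -1.32 ± 0.087 (SE; adjusted p = 3.31e-08 by edgeR's quasi-likelihood test), a ratio of 0.402. By size it was number 322 of the 13608 genes tested in either direction. Pdgfra was the single member past a difference of 2-fold, a size that 4.98% of all genes tested reached at the same adjusted p.

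**Figure D2:**
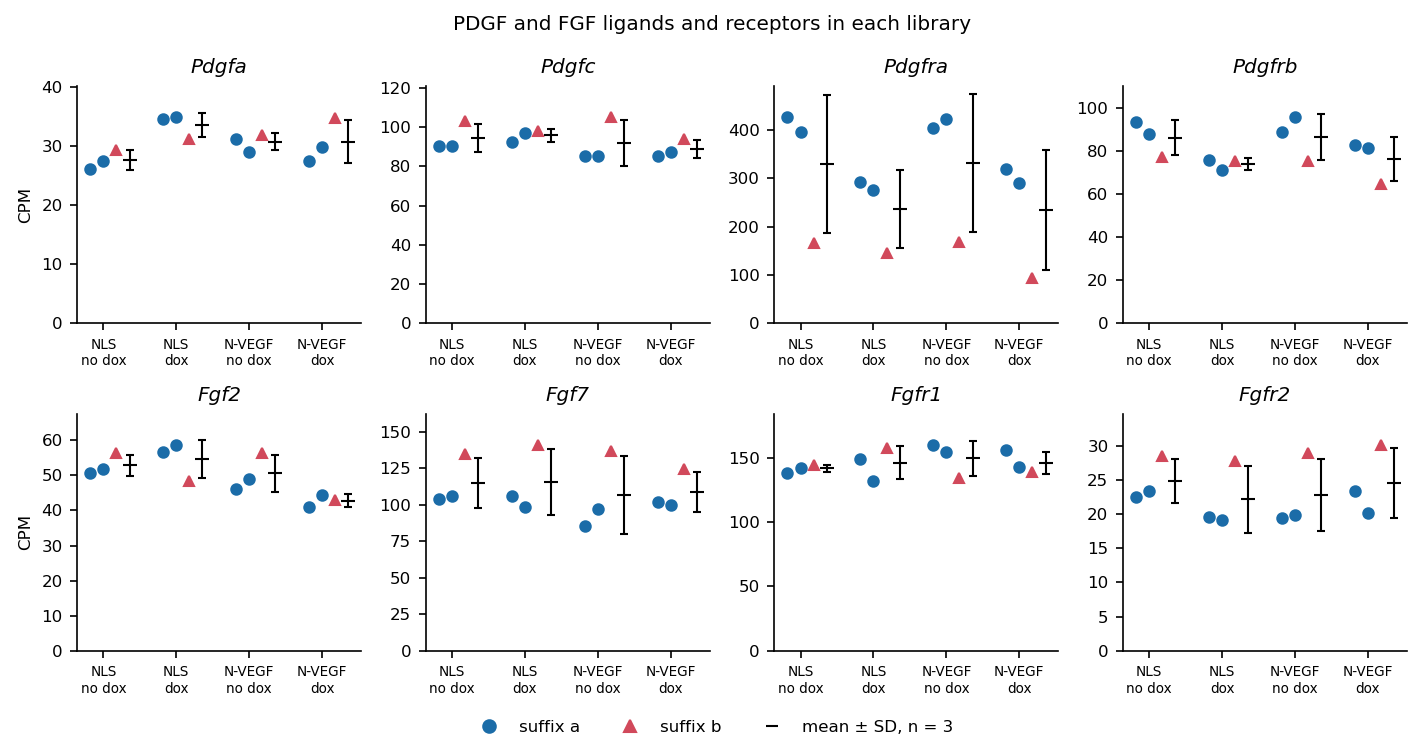
CPM of each gene in each library, by group. Circles are libraries of suffix a, triangles libraries of suffix b, and bars the mean ± SD of the 3 libraries of a group. The triangles of Pdgfra lie at 92.88 to 168.2 CPM under all circles, those of Fgf7 and Fgfr2 lie above all circles, and within each suffix Pdgfra is lower in the dox groups.

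Of the 8 genes tested, 5 differed between the suffixes, 3 higher and 2 lower in suffix b, beside 45.6% of all genes, and the median log2 difference of the 8 was 0.06 against 0.01 over all genes. The other receptor of the PDGF family moved the same way as Pdgfra by much less. Pdgfrb was at 93.39, 87.82 and 77.39 CPM (NLS-N-VEGF no dox), 75.58, 70.96 and 75.54 CPM (NLS-N-VEGF dox), 88.61, 95.81 and 75.13 CPM (N-VEGF no dox) and 82.99, 81.15 and 64.69 CPM (N-VEGF dox), in the same order of libraries. The suffix sets overlapped, and the library of suffix b was below both others in 3 of the 4 groups. The log2 difference was -0.20 ± 0.061 (SE; edgeR adjusted p = 0.0127). The ratio of the receptor levels shifted with it: Pdgfra stood at 1.96 to 2.50 times the RPKM of Pdgfrb in the 8 libraries of suffix a and at 0.785 to 1.22 times in the 4 libraries of suffix b.

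The FGF genes that moved were the ligand Fgf7 (ENSMUSG00000027208, chr2:126034658-126091185, plus strand) and the receptor Fgfr2 (ENSMUSG00000030849, chr7:130162451-133123350, minus strand, GRCm38), and both were higher in suffix b. Fgf7 was at 85.78 to 106.2 CPM (median 100.8) in the 8 libraries of suffix a. The 4 libraries of suffix b had 134.8, 141.3, 137.1 and 124.3 CPM, in the order NLS-N-VEGF no dox, NLS-N-VEGF dox, N-VEGF no dox and N-VEGF dox. The sets did not overlap, and the log2 difference was 0.43 ± 0.055 (SE; edgeR adjusted p = 1.67e-05), or 1.35-fold. The share of all genes whose suffix sets do not overlap is not given here. Fgfr2 was at 19.06 to 23.43 CPM (median 20.01) in suffix a and at 28.49, 27.77, 28.85 and 30.13 CPM in suffix b, again without overlap. Its log2 difference was 0.47 ± 0.063 (SE; edgeR adjusted p = 2.5e-05), or 1.38-fold. Both genes were above the other 2 libraries of their group in all 4 groups. The RPKM of Fgfr1 was 6.37 to 8.60 times that of Fgfr2 in suffix a and 4.83 to 5.94 times in suffix b.

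Pdgfc, the gene for a PDGF chain that is secreted in latent form and cut to become active, was slightly higher in suffix b. It was at 85.15 to 97.09 CPM in suffix a and at 103, 98.1, 105.3 and 93.88 CPM in the 4 libraries of suffix b, so the sets overlapped. The log2 difference was 0.17 ± 0.050 (SE; edgeR adjusted p = 0.0127). This call did not hold within either population alone (adjusted p of 0.0755 in NLS-N-VEGF and 0.0894 in N-VEGF libraries).

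The remaining genes did not pass the test for the suffix. Pdgfa was at 26.05 to 34.96 CPM in suffix a and at 29.34 to 34.75 CPM in suffix b, and the 95% interval of its log2 difference ran from -0.05 to 0.21. Fgf2 was at 40.87 to 58.74 CPM and 42.86 to 56.36 CPM (interval -0.10 to 0.17). Fgfr1 was at 132.1 to 160.2 CPM and 134.3 to 157.6 CPM (interval -0.15 to 0.09).

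The suffix was then compared within each population, with 4 libraries against 2. Pdgfra fell in both, by 1.13 ± 0.073 (SE) on the log2 scale in NLS-N-VEGF cells (edgeR adjusted p = 2.55e-08) and by 1.50 ± 0.12 in N-VEGF cells (adjusted p = 0.000113). The difference between these falls was 0.36 ± 0.14, with an adjusted p of 0.637 and an unadjusted p of 0.0238 by edgeR, so it was not called. Fgf7 (0.42 and 0.44) and Fgfr2 (0.43 and 0.51) had near values in the 2 populations. Pdgfrb was at -0.08 (adjusted p = 0.379) in NLS-N-VEGF and -0.32 (adjusted p = 0.0205) in N-VEGF cells, and the difference of 0.23 ± 0.11 had an adjusted p of 0.646. Fgfr1 had opposite signs, 0.12 and -0.17, neither called, with a difference of 0.27 ± 0.11 (unadjusted p = 0.0219, adjusted p = 0.633). In this test of the difference, 0 of the 8 genes were called, beside 0% of all genes. Across all genes 1057 had an unadjusted p under 0.05, and DESeq2's Wald test called 20.

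**Figure D3:**
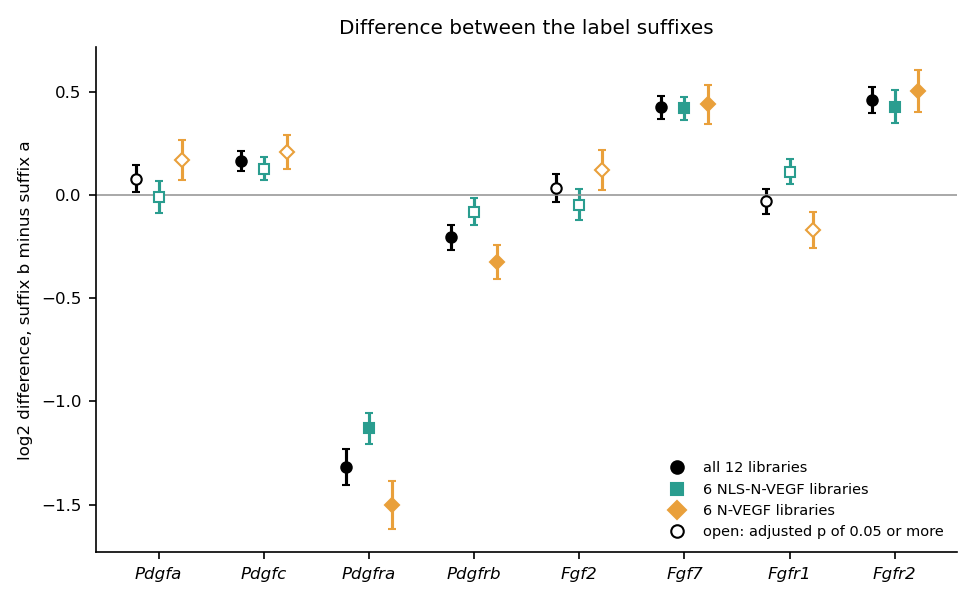
Log2 difference between the suffixes (suffix b minus suffix a) with its standard error for each gene, over all 12 libraries and within each population of 6 libraries. Filled symbols have an adjusted p under 0.05. Pdgfra lies between -1.50 and -1.13 in all 3 fits, Fgf7 and Fgfr2 between 0.42 and 0.51.

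The sequence just upstream of the start is shown for the gene that fell most and for Fgf7, which rose, as examples of either direction with an entry in the promoter table used. Fgfr2, which rose by 0.47 on the log2 scale, has an entry as well and is not shown. The windows are the 250 bases before the RefSeq start in GRCm38.p6, both on the plus strand, at chr5:75152001-75152250 for Pdgfra and chr2:126034408-126034657 for Fgf7. Capitals mark CpG dinucleotides and matches to 5 short motifs, which were searched on both strands. The letters searched were TATAAA for the TATA box, GGGCGG for the GC box bound by Sp1, TGANTCA for the AP-1 site, ACGTG for the core bound by hypoxia-inducible factors, and CCAAT for the box of that name.
Pdgfra: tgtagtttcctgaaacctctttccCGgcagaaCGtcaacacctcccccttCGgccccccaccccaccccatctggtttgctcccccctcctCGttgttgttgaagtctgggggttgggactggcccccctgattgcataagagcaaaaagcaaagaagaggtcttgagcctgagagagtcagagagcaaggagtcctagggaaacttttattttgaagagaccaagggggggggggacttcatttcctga
Fgf7: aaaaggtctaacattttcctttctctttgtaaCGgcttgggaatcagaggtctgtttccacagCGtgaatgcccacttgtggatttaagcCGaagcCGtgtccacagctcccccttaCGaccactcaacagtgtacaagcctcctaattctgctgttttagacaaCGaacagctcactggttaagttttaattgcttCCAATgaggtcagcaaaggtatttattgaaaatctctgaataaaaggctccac
The Pdgfra window had 54.4% G and C and 4 CpG dinucleotides, near the medians of 52.4% and 6 over the 32851 windows of the table. The Fgf7 window had 43.6% G and C and 6 CpG. None of the 5 motifs was found in the Pdgfra window, and 1 CCAAT, a motif present in 33.9% of 32841 windows free of ambiguous letters, was found in the Fgf7 window. TATAAA was held by 12.4% of those windows, GGGCGG by 32.7%, TGANTCA by 6.75% and ACGTG by 16.6%. The RefSeq start of Fgf7, at base 126034658, is also the start in the deposited table, whereas that of Pdgfra lies at base 75152251 and the table places the gene at chr5:75152292-75198215. Windows were used for 7 of the 10 genes, 2 of them for Pdgfa. None was used for Pdgfb, Pdgfrb and Fgfr1, which does not show that these genes lack an entry. The ligand genes Pdgfa and Fgf2, which did not pass the suffix test, had richer windows, at 66.4% and 72.4% G and C for Pdgfa and 62.4% for Fgf2, with GGGCGG in each.

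Dox was compared with no dox in each population. When groups were compared without regard to the suffix, 0 of the 8 genes were called in NLS-N-VEGF cells, beside 0.022% of all genes, and 0 in N-VEGF cells, beside 0.0367%. DESeq2's Wald test also called 0 members in each. At an unadjusted p under 0.05 there were 318 genes (2.34% of those tested) in NLS-N-VEGF cells and 201 (1.48%) in N-VEGF cells, with 1 member in each population: Pdgfa in NLS-N-VEGF cells, with a log2 difference (dox minus no dox) of 0.28 ± 0.10 (SE; unadjusted p = 0.0167, adjusted p = 1), and Fgf2 in N-VEGF cells, with -0.24 ± 0.10 (unadjusted p = 0.0339, adjusted p = 1). For Pdgfra, whose spread within groups followed the suffix, the same fit gave -0.48 ± 0.49 in NLS-N-VEGF and -0.50 ± 0.49 in N-VEGF cells.

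Deviations of libraries that carry the same number and suffix correlated across groups, but the suffix difference itself enters these correlations. They do not show that the library numbers pair libraries within suffix a. The labels were taken to pair the libraries all the same, and dox was also compared between same-labelled libraries. Pdgfra was lower with dox in 6 of 6 such pairs, by log2 values of -0.55, -0.53 and -0.19 in NLS-N-VEGF and of -0.34, -0.54 and -0.86 in N-VEGF cells. Each suffix contributed pairs of this direction in both populations. The share of all genes with 6 of 6 pairs in 1 direction is not given here, so this count has no background beside it. When that label entered the fit as a replicate block, the log2 difference was -0.42 ± 0.11 (SE) in NLS-N-VEGF cells (edgeR adjusted p = 0.229) and -0.56 ± 0.11 in N-VEGF cells (adjusted p = 0.0572), and 0 of 8 genes were called in either, beside 0.125% and 0.11% of all genes. At an unadjusted p under 0.05 the blocked fit had 3 members in NLS-N-VEGF cells (Pdgfa, Pdgfra and Pdgfrb), beside 7.27% of all genes, and 3 in N-VEGF cells (Pdgfra, Pdgfrb and Fgf2), beside 5.4%. Among the libraries of suffix a alone it was -0.55 ± 0.081 (adjusted p = 0.0131) in NLS-N-VEGF and -0.45 ± 0.081 (adjusted p = 0.0839) in N-VEGF cells.

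The mean of both dox effects was fitted as well, a comparison added after the pairs had been seen. Without the block it called 0 members, beside 0.0588% of all genes, and Pdgfra was at -0.49 ± 0.35 (edgeR adjusted p = 1). With the replicate block it called 1 member of 8, beside 0.566% of all genes. This was Pdgfra, which fell by 0.49 ± 0.077 (SE) on the log2 scale with dox (adjusted p = 0.00419). Leaving out each of the 12 libraries in turn under the block kept Pdgfra below an adjusted p of 0.05 in 12 of 12 fits (log2 difference -0.57 to -0.42, adjusted p 0.000262 to 0.0284). The libraries of suffix a alone gave -0.50 ± 0.057 (adjusted p = 0.00237). The fall with dox did not differ detectably between the populations (difference under the block 0.14 ± 0.15, adjusted p = 1). Some markers of the cells moved with dox as well in this blocked fit, beside the same 0.566% of all genes. Of 11 fibroblast markers tested, 0 were called higher and 1 lower: Dcn, for the matrix proteoglycan decorin, fell by 0.54 ± 0.088 (SE; edgeR adjusted p = 0.00578). Of 2 mural and smooth muscle markers tested, Acta2 rose by 0.54 ± 0.12 (adjusted p = 0.0453) and Cspg4 was at 0.23 ± 0.055 (adjusted p = 0.075). The fibroblast markers not called lay on both sides of 0, among them Col5a1 (0.22 ± 0.068, edgeR adjusted p = 0.214) and Col3a1 (-0.30 ± 0.11, adjusted p = 0.349). The median over the 11 tested was 0.02. The summed mural markers ran from 232.7 to 397.2 CPM without dox and from 274.6 to 556.3 CPM with dox, and the summed fibroblast markers from 12090 to 14010 CPM and from 11210 to 13290 CPM. Their part in the fall of Pdgfra with dox was not tested.

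**Figure D4:**
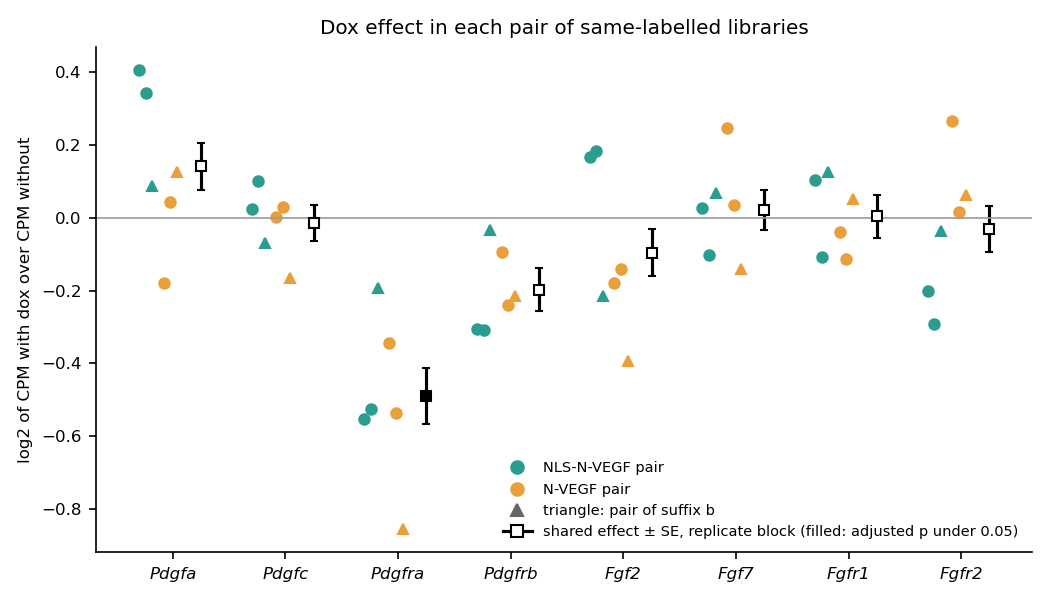
Log2 of CPM with dox over CPM without dox in each of the 6 pairs of same-labelled libraries for each gene, and the shared effect under the replicate block with its standard error. All 6 pairs of Pdgfra (-0.86 to -0.19) and of Pdgfrb (-0.31 to -0.03) lie below 0, and Pdgfra alone has an adjusted p under 0.05.

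The receptor gene Pdgfrb was also lower with dox in 6 of 6 pairs, by log2 values of -0.31 to -0.03, again a count without background. Its shared difference under the block was -0.20 ± 0.059 (SE), with an unadjusted p of 0.00398 and an edgeR adjusted p of 0.207, and so it was not called. It passed in 1 of 12 fits that left out a library. Pdgfa was higher with dox in 5 of 6 pairs (log2 -0.18 to 0.41; shared difference under the block 0.14 ± 0.065, adjusted p = 0.52). In uninduced NLS-N-VEGF cells it was at 26.05, 27.53 and 29.34 CPM and after dox at 34.55, 34.96 and 31.2 CPM, groups that do not overlap, whereas in N-VEGF cells the groups overlapped (29.08 to 31.82 and 27.56 to 34.75 CPM). The difference between these effects was 0.28 ± 0.14 (adjusted p = 1).

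The other 5 genes had pairs on both sides of 0. Fgf2 was higher with dox in both NLS-N-VEGF pairs of suffix a (0.17 and 0.18) and lower in that of suffix b (-0.22), and it was lower in all 3 N-VEGF pairs (-0.18, -0.14 and -0.39). Fgfr2 was lower with dox in the 3 NLS-N-VEGF pairs (-0.20, -0.29 and -0.04) and higher in the 3 N-VEGF pairs (0.27, 0.02 and 0.06). Its effects differed between the populations by -0.29 ± 0.13 under the block (SE; unadjusted p = 0.0356, edgeR adjusted p = 1). The shared differences of Fgf7, Fgfr1, Fgfr2 and Pdgfc under the block lay between -0.03 and 0.02, with standard errors of 0.050 to 0.063, and for Fgfr2 this mean joins effects of opposite sign. The test for a difference between the dox effects of the 2 populations called 0 of 8 members, beside 0% of all genes. At an unadjusted p under 0.05 that test had 116 of all genes and 0 members, and DESeq2 called 0 members. With the replicate block 3 members, Pdgfa, Fgf2 and Fgfr2, had an unadjusted p under 0.05 (0.0435, 0.0364 and 0.0356, each with an edgeR adjusted p of 1), beside 464 genes or 3.41% of those tested.

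NLS-N-VEGF and N-VEGF cells were compared at the same treatment. With dox, 0 of 8 members were called, beside 0% of all genes (160 at an unadjusted p under 0.05). Fgf2 came closest, at 56.78, 58.74 and 48.49 CPM in NLS-N-VEGF and 40.87, 44.53 and 42.86 CPM in N-VEGF cells. The log2 difference was 0.35 ± 0.10 (SE; unadjusted p = 0.00438, edgeR adjusted p = 1). Without dox, 0 of 8 were called, beside 0% (82 at an unadjusted p under 0.05), and the log2 differences of the members lay between -0.15 and 0.12. DESeq2 called 0 members in both comparisons. Pdgfra without dox differed between the populations by -0.01 ± 0.11 under the replicate block.

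Other genes of these pathways were read from lists by role, beside the same 45.6% of all genes for the suffix and a median log2 difference over all genes of 0.01. Of 24 other ligands and receptors of both families, 6 had enough reads. Fgf10, a mesenchymal ligand, was lower in suffix b (-0.30 ± 0.069, edgeR adjusted p = 0.00226) and Fgf17 was higher (1.95 ± 0.30, adjusted p = 8.49e-05) on 2 to 18 reads per library. Of the other FGF receptor genes, Fgfr3 had at most 2 reads and Fgfr4 at most 10 in any library, and Fgfrl1, for a receptor without a kinase domain, had 558 to 915 reads and did not pass (-0.04 ± 0.067, adjusted p = 0.648).

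Of 26 extracellular partners of the ligands (heparan sulfate proteoglycans and the enzymes that build or trim their chains, ligand carriers and ligand proteases), 21 were tested, 4 were higher and 10 lower in suffix b, with a median log2 difference of -0.16. Fgfbp3, which encodes a secreted FGF-binding protein, fell by 1.58 ± 0.089 on the log2 scale, from 49.9 ± 7.49 CPM (SD, 8 libraries) to 16.8 ± 3.88 CPM (SD, 4 libraries). Ndst1, whose product sulfates heparan sulfate, fell by 0.64 ± 0.069, and Hs6st2, another sulfotransferase gene, by 0.74 ± 0.24. Sulf2, for an extracellular 6-O-sulfatase, rose by 2.40 ± 0.37 on 1 to 18 reads per library.

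All 27 adaptors and enzymes bound by the receptors were tested, with 1 higher and 13 lower in suffix b and a median of -0.17. Frs2, the docking protein of activated FGF receptors, fell by 0.97 ± 0.082, from 286.6 ± 32.7 to 145.2 ± 12.1 CPM. Stat3 fell by 0.56 ± 0.078, Cblb, a ubiquitin ligase of receptor tyrosine kinases, by 0.55 ± 0.067, and the adaptor Nck2 by 0.45 ± 0.080. With dox the shared effect without the block called 1 gene of this list, the kinase Src, which rose by 0.53 ± 0.075 (edgeR adjusted p = 0.0224). Under the replicate block Src was again called higher (0.53 ± 0.062, edgeR adjusted p = 0.000215). The blocked fit also called Nrp1, of the extracellular partners, higher (0.28 ± 0.061, edgeR adjusted p = 0.0453), beside 0.566% of all genes. Of the feedback and FGF target genes, 15 of 16 were tested, with 3 higher and 8 lower in suffix b and a median of -0.21. Il17rd, an FGF feedback inhibitor also called Sef, fell by 0.80 ± 0.13, and the Sprouty and Spred genes Spry1 and Spred2 fell by 0.63 ± 0.13 and 0.50 ± 0.067. Dusp4, a MAP kinase phosphatase gene, rose by 0.73 ± 0.10. In the dox comparisons of each population without the block, 0 genes of the 4 lists were called.

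**Figure D5:**
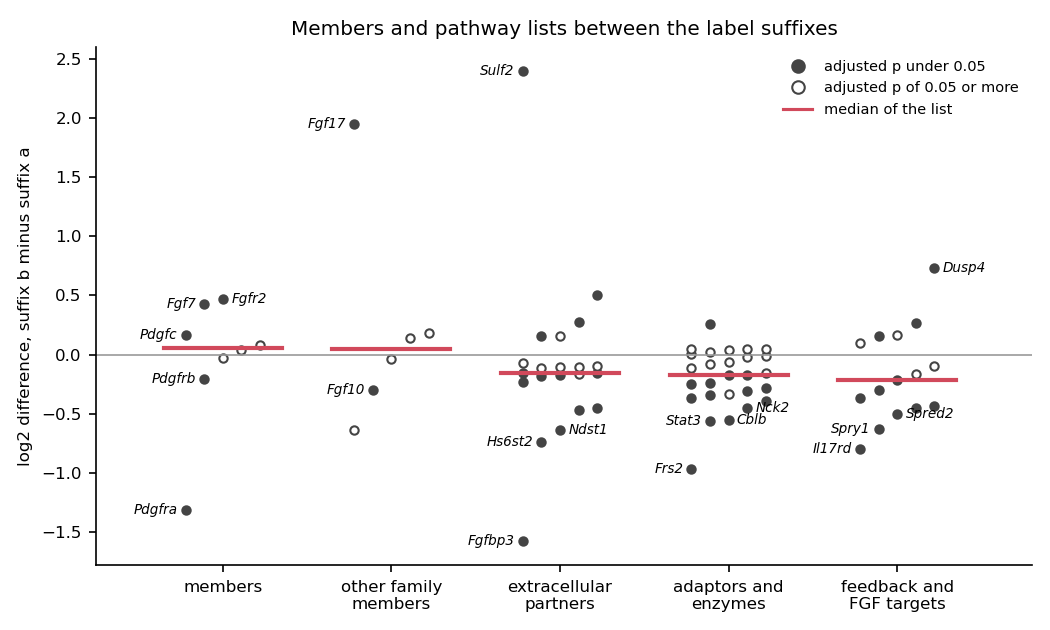
Log2 difference between the suffixes (suffix b minus suffix a) for the 8 tested members and for the tested genes of 4 pathway lists, with the median of each list as a red line. Filled circles have an adjusted p under 0.05, and the called genes of largest size are named. Pdgfra (-1.32), Fgfbp3 (-1.58) and Frs2 (-0.97) are the lowest of their lists and Sulf2 (2.40) and Fgf17 (1.95) the highest.

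Some markers of the cells moved with the suffix beside Pdgfra, as did 45.6% of all genes. Of 12 fibroblast markers 11 were tested, 4 higher and 3 lower in suffix b. Col3a1, a fibrillar collagen gene, fell by 1.22 ± 0.13 on the log2 scale (551.9 ± 88.4 to 238.7 ± 62.1 CPM), and Fn1 fell by 0.55 ± 0.076. Thy1 rose by 0.53 ± 0.053 and Lum by 5.26 ± 0.49 on 0 to 26 reads per library. Among 6 mural and smooth muscle markers, 2 were tested and both were higher in suffix b: Acta2, smooth muscle actin, by 1.60 ± 0.12 and Cspg4 by 0.27 ± 0.055, while Rgs5 had at most 3 reads in any library. The summed level of these 6 genes was 232.7 to 315.3 CPM in suffix a and 373.6 to 556.3 CPM in suffix b. Their part in the suffix difference of Pdgfra was not tested. In bulk RNA, fewer cells that express a gene and less RNA per cell cannot be told apart.

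Over the 12 libraries, the genes whose centred log2 CPM ran closest to Pdgfra, among 12057 genes of 1 CPM or more, were Col3a1 and Fzd1, a Wnt receptor gene, with root mean square differences of 0.15 and 0.16 against a standard deviation of Pdgfra of 0.72. For Fgf7 they were Cops5 and Mbnl1 (0.07 each, standard deviation 0.23), and for Fgfr2 Arfrp1 and Znhit6 (0.08 each, standard deviation 0.25). The nearest genes of Pdgfrb were Ppp3ca and Tcaf2 (0.06 each, standard deviation 0.17), of Pdgfc Hnrnpll and Metap1, of Pdgfa Stk39 and Actr3, of Fgf2 Alcam and H3f3b, and of Fgfr1 Tsc2 and Cd99l2.

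Some reads could not be assigned with the same certainty. Exons of Pdgfa share 26.07% of their bases with the antisense gene 6330403L08Rik, and exons of Fgf2 share 9.44% with the antisense gene Nudt6 and 3.76% with Gm43439. Pdgfra shares 6.5% with Gm42802, Gm42803 and Mir7025, and Fgfr2 3.04% with Ctbp2. The overlaps of Pdgfc and Fgfr1 were 2.89% and 1.66%, and Pdgfb, Pdgfd, Pdgfrb and Fgf7 had none. The strand setting of the read counting was not given in the sources used here, so reads in the antisense overlaps may have been left out or counted for either gene.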

How the data were processed

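The deposited table holds raw counts per gene, which the authors made from 80-base single reads (TruSeq libraries, Illumina NextSeq) trimmed with Trim Galore, aligned to GRCm38 (Ensembl release 94) with TopHat2 2.1.0 and Bowtie2 2.2.6 and counted with HTSeq 0.6.1. Members and lists were chosen with earlier results of these data known. All 10 members and, from lists, up to 4 called genes of largest change per comparison were named. Counts were filtered with filterByExpr, scaled by TMM and tested with edgeR 4.0.16 (R 4.3.3, glmQLFTest). The SE of an edgeR fit was the absolute log2 difference divided by the square root of its F statistic. Intervals are at 95% with normal quantiles, which makes them narrower than the test itself implies. On simulated counts the suffix fit (13204 genes) recovered 100% of genes changed 2-fold and 86% of those changed 1.3-fold, and the fit of dox in NLS-N-VEGF cells (13403 genes) 88% and 7%. RPKM used merged exons of GENCODE release 21 for mouse. Of the value columns, 0 were left unused. The suffix fit had the group as covariate, and dox and population fits used group means. Alternatives were RLE scaling, DESeq2 1.42.0, other filters, unscaled totals, the suffix in the model, 1 suffix, number or population alone, and each library left out. Unscaled totals and the suffix in the model were added after the data were seen. Labels give groups the same numbers. Deviations of same-labelled libraries correlated at 0.32 to 0.79 in 18 of 18 pairs (12058 genes, mean 0.54, other pairs -0.23). The labels were taken to pair the libraries, and a replicate block was fitted. The suffix difference itself enters these correlations, so they do not show that numbers 1 and 2 pair libraries within suffix a. The biological coefficient of variation was 7.86% with the block and 7.93% with the suffix in its place. Libraries within groups differed by more than sampling noise. Between the 2 libraries of suffix a the chi-square per degree of freedom was 26.6 in N-VEGF no dox and 1.76 to 5.02 in the other groups. Library 1 of N-VEGF no dox had reads in 19976 genes, the fewest of all, and enters 1 of the N-VEGF pairs. No label says that they came from separate cultures, so p-values measure only the spread between these libraries.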

Additional observations from a re-analysis of the deposited data

How the results depend on the processing

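The suffix calls of Pdgfra, Fgf7 and Fgfr2 held in every alternative run, and those of Pdgfrb and Pdgfc did not. The members called for the suffix numbered 5, with 4 without a filter (Pdgfc was lost), 4 in libraries of number 2 alone, 4 in N-VEGF libraries alone, 3 in NLS-N-VEGF libraries alone and 3 to 5 when a library was left out. N-VEGF libraries alone gave 3278 genes. Values of genes not called turned in sign: Fgf2 was at -0.0096 in libraries of number 2 alone and at -0.045 in NLS-N-VEGF libraries alone, where Pdgfa was at -0.0077 and Fgfr1 at 0.12. With a library left out Fgf2 ranged from -0.040 to 0.13 and Fgfr1 from -0.098 to 0.031. The cause was not tested.

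Counts of all genes called for dox rested on the model. The replicate block gave 17 genes in NLS-N-VEGF cells (main value 3), 15 in N-VEGF cells (5), 77 for the shared effect (8) with 1 member, and 2 between populations with dox (0). The block changed no other call of a member. The suffix in the model, added after the data were seen, gave 15, 13, 73 with 1 member, and 2. Libraries of suffix a alone gave 109 with 1 member, 16, 135 with 1 member, and 11, with 4 for the difference of dox effects and 5 between populations without dox. DESeq2 gave 12, 8 and 21 for the dox effects and 20 for the difference of suffix effects. Without a filter the counts were 53, 36 with 1 member, 77 with 1 member, 9 with dox, 10 without dox, 1 for the difference of dox effects and 81 for that of suffix effects; each of these members was Pdgfra. A library left out gave 0 to 3 genes in NLS-N-VEGF cells, 1 to 7 in N-VEGF cells, 5 to 9 for the shared effect and 0 to 31 for the difference of suffix effects. Depth limits Pdgfb and Pdgfd, and suffix b has 1 library per group.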
